A study of Mus musculus with 18 samples.

Results

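The comparison was a difference of differences: for each liver gene, the effect of the LL genotype in females minus the effect of the LL genotype in males. All 18 of 18 libraries entered it, 1 library of liver RNA per mouse, with 4 mice in each male genotype group (male PP, male LL) and 5 in each female one (female PP, female LL). PP mice carried the wild-type proline of glucokinase regulatory protein (GKRP, the product of Gckr) at the edited residue and LL mice were homozygous for the knocked-in leucine, all in the line GCKR-P446L-EMI-B6N and on standard chow. The labels gave ages of 9, 12, 14 and 14 weeks in male PP, 13, 13, 13 and 14 weeks in male LL, 9, 9, 11, 12 and 14 weeks in female PP and 11, 11, 13, 13 and 14 weeks in female LL mice, whereas the series gave 14 weeks for all. PP mice were thus on average younger by the labels. Every cell of an LL mouse carried the edit, and the libraries were of whole liver.

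GKRP holds the enzyme it is named for inactive in the hepatocyte nucleus and lets it go after a meal. The glucose phosphorylated then feeds glycogen and fat synthesis, and sugar phosphates activate the transcription factor ChREBP, which raises genes of glycolysis and lipogenesis. Mouse liver is also strongly sexually dimorphic, since the pulsatile growth hormone of males and the more continuous growth hormone of females keep different cytochrome P450, urinary protein and transporter genes on. A genotype effect can therefore start from a different level in each sex, and the test below asked only whether the 2 effects differed on the log scale.

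Total estimated counts ranged from 3794671 to 6613905 per library. Xist, the RNA of the inactive X, and the Y-linked Ddx3y matched the labelled sex in all 18 libraries. Median fragment length, as inferred from effective transcript length, was 369 to 631 bases in female PP, 247 to 377 in female LL, 396 to 629.7 in male PP and 203 to 582 in male LL mice, so the female groups overlapped only by female LL 3 (377) and female PP 4 (369). Mitochondrial transcripts took 8.52% to 13.7% of the counts in 17 libraries and 17.9% in male LL 1. Hepatocyte markers, with Alb and the apolipoproteins, were the most abundant of the marker lists in every library.

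The edited gene had no call for a difference of LL effects. Gckr (ENSMUSG00000059434, GRCm39 chr5:31454787-31484658) had 399.7 to 581 normalised counts (estimated counts divided by the size factor of the library) in male PP, 464 to 515 in male LL, 519.8 to 779 in female PP and 526 to 691 in female LL mice. The groups overlapped in both sexes. The female minus male difference of log2 fold changes was 0.07 ± 0.20 (SE; DESeq2 adjusted P = 0.933). Counts per gene do not show the edited codon, so Gckr does not check the genotype labels.

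Of 10938 genes tested, 13 (0.119%) had an adjusted P below 0.05 for the difference of LL effects by the DESeq2 Wald test, 7 above 0 and 6 below 0. A value above 0 means that the LL effect was higher, that is more positive or less negative, in females. The unadjusted p was below 0.05 for 620 genes (5.67%), of which 303 lay above 0 (2.77%) and 317 below 0 (2.9%). DESeq2 gave an adjusted P to only 1606 genes, those with a mean of about 270.0 normalised counts or more. edgeR's quasi-likelihood test and limma voom each called 0 genes, with 676 at an unadjusted p below 0.05 in either tool. The median difference over all genes was 0.01 on the log2 scale and 51.5% of genes lay above 0.

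By size, the 13 genes fell into patterns that take 1.3-fold as the limit within a sex. For 2 genes (Saa2 and Rn18s-rs5) the estimates were past 1.3-fold in opposite directions. For 5 genes, with Ahcyl, Afm, Ube2l6 and AW112010 among them, only the female estimate passed that size, and for 3 (Cyp4a14, Saa1 and Scd1) only the male one. Alb, Uox and H2-K1 had unlike signs with both estimates smaller than 1.3-fold. Over all 10938 genes, 300 were opposite, 1461 passed the limit in females only, 1503 in males only and 560 in both with the same sign. Effects within a sex were not tested here and are given as estimates with SE.

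**Figure D1:**
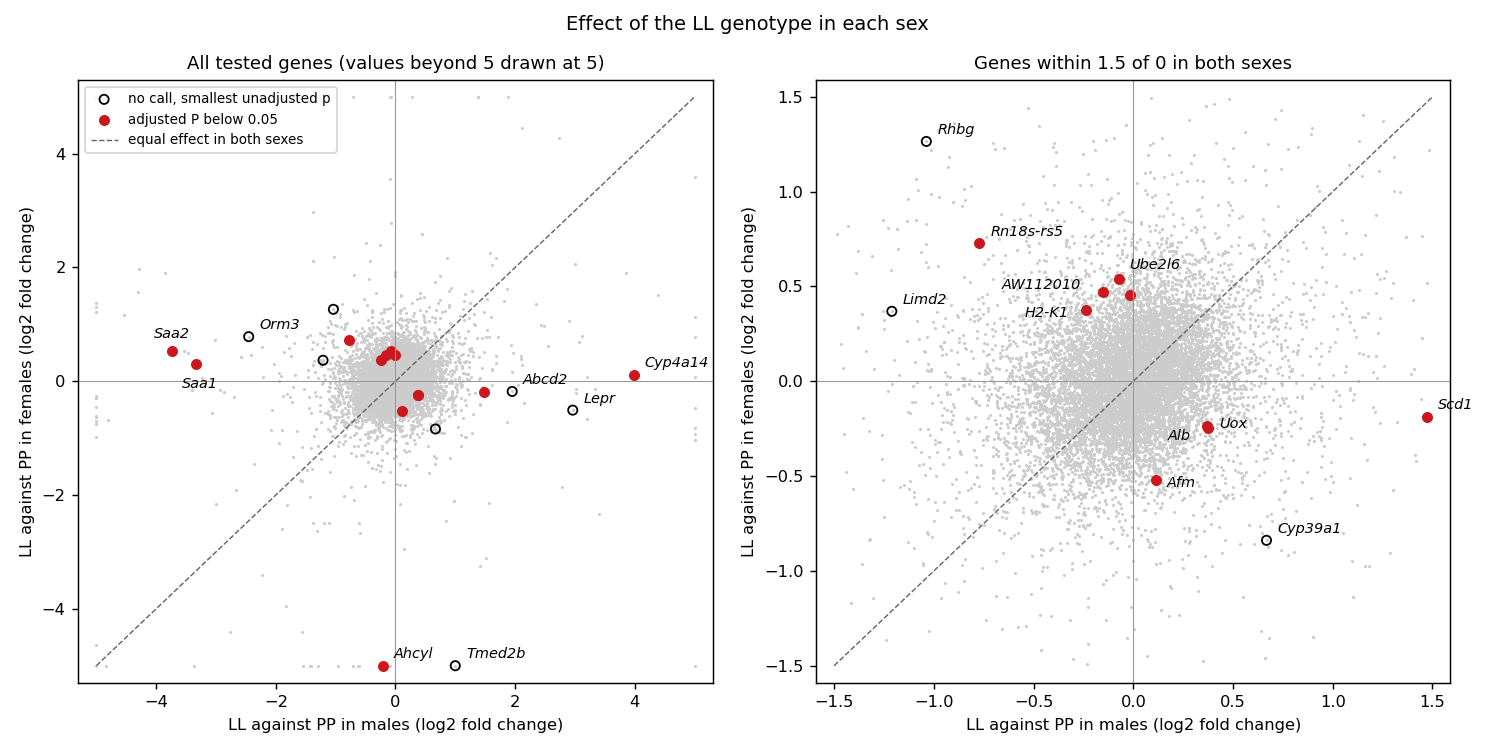
Log2 fold change of LL against PP in males (x axis) and females (y axis) for each of 10938 genes, with all genes at left and those within 1.5 of 0 at right. Red points are the 13 genes with an adjusted P below 0.05, open circles the 7 genes with no call that have the smallest unadjusted p once gene models named Gm or Rik are left out, and the dashed line marks equal effects. Cyp4a14 lies far right near a female value of 0, Saa1 and Saa2 far left, and Ahcyl at the lower limit of the plot because every female LL mouse was at 0.

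Among the called genes with counts in all mice, 2 genes of fat metabolism gave the largest differences below 0. Cyp4a14, an omega-hydroxylase of fatty acids and a classic target of the fatty acid receptor PPARα (ENSMUSG00000028715, chr4:115343397-115353344), had 10.5, 47.0, 88.0 and 153 normalised counts in male PP and 106, 862, 1260.0 and 2486 in male LL mice. Female PP mice had 3642, 4522, 5385, 5569 and 6295, and female LL mice 4222, 4607, 5316, 5826 and 7559.6. Males of the 2 genotypes overlapped only by the lowest LL mouse, females overlapped throughout, and every female was above every male. The log2 fold change by LL was 3.98 ± 0.70 (SE) in males and 0.12 ± 0.62 in females, a difference of -3.87 ± 0.93 (DESeq2 adjusted P = 0.0180).

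Scd1, the desaturase that makes monounsaturated fatty acids (ENSMUSG00000037071, chr19:44382894-44399154), had 9809.6, 9989, 12488 and 18859 normalised counts in male PP and 31423, 34889, 35996 and 39747 in male LL mice. The male groups did not overlap. Female PP mice had 23256, 26111, 28085, 32823 and 40040.5, and female LL mice ran from 10534 and 13811 through 24134 and 29595 to 54012. Female LL mice thus spread over most of the range of the other groups, and female LL 3 held the highest value of all 18. The log2 fold change was 1.47 ± 0.35 in males and -0.19 ± 0.31 in females, a difference of -1.66 ± 0.46 (DESeq2 adjusted P = 0.0459).

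Fatty acid synthesis and desaturation genes lay below 0 as a group. Of 29 listed genes 26 were tested, 22 were below 0, 11 had an unadjusted p below 0.05 below 0 and none above 0, and Scd1 was called. The median difference was -0.45, from medians of 0.36 in males and -0.06 in females, beside 0.01 over all genes. After Scd1 the smallest p belonged to Elovl5, which elongates polyunsaturated fatty acids (-0.96 ± 0.30, adjusted P = 0.0845), and Acaca, the committed enzyme of fatty acid synthesis (-0.80 ± 0.26, adjusted P = 0.113, both DESeq2). Their patterns were not alike. Elovl5 had 564 to 918 normalised counts in male PP, 1564 to 2589 in male LL, 1623 to 2879.9 in female PP and 2289 to 3974 in female LL mice, with LL estimates above 0 in both sexes. Acaca had LL estimates of 0.34 ± 0.19 in males and -0.45 ± 0.17 in females. Fasn (-0.65), Acly (-0.76), Elovl6 (-1.15) and Fads2 (-0.73) had differences below 0 with no call. Their regulator Srebf1 had a difference of -0.16 and an unadjusted p of 0.747.

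PPARα targets and fatty acid oxidation genes, all 36 of which were tested, had a median difference of -0.32, 29 below 0, 5 with an unadjusted p below 0.05 below 0 and none above 0. Cyp4a14 was the 1 call. The other members that led the list were Cyp4a31, a neighbour of Cyp4a14 in the same family (-1.19 ± 0.41), and Mfsd2a, a transporter of lysophospholipids (-1.25 ± 0.48, DESeq2 adjusted P = 0.290), neither called. Core enzymes of β-oxidation had values near 0, with Acadm at -0.07 and Cpt1a at -0.17. The median of the list was -0.16 without male PP 2, -0.20 without male LL 1, -0.19 without male LL 2 and -0.05 without both male LL 1 and male LL 2, of which the former had the highest mitochondrial share and the latter the shortest fragments.

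**Figure D2:**
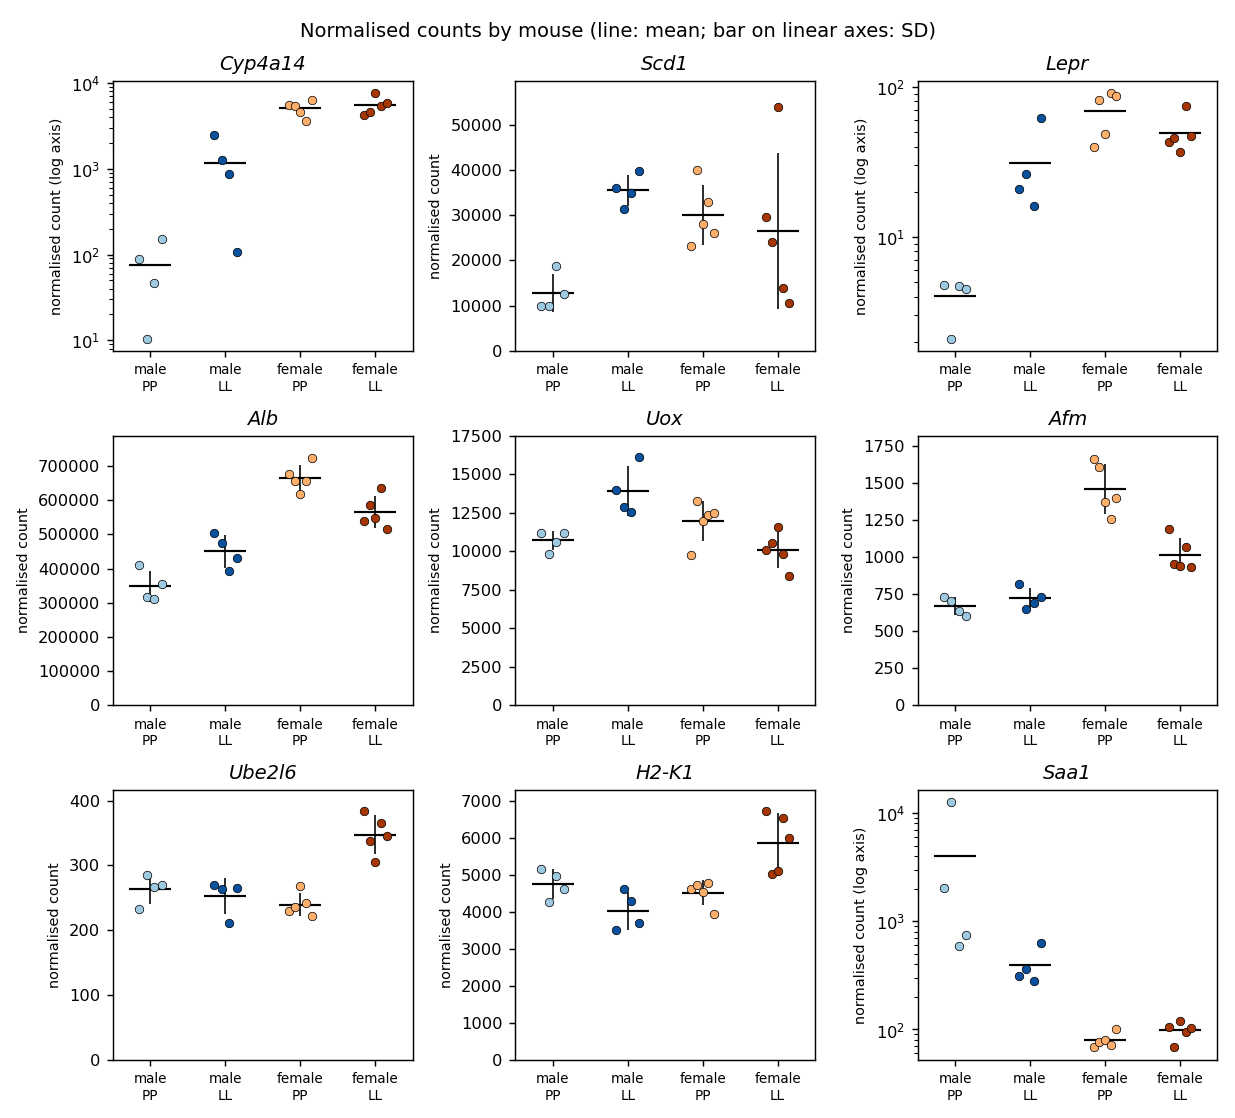
Normalised counts of 9 genes in each mouse, with a log axis for Cyp4a14, Lepr and Saa1 and axes from 0 for the others. Lines are group means and bars SD (n = 4 in each male and 5 in each female group). Male PP and male LL points of Scd1, Lepr and Uox are apart while their female points overlap, and female PP and female LL points of Afm, Ube2l6 and H2-K1 are apart while their male points overlap.

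The smallest unadjusted p of all genes was that of Lepr, the leptin receptor (ENSMUSG00000057722, chr4:101574601-101676237), at 1.59e-08. It had 2.10, 4.50, 4.70 and 4.80 normalised counts in male PP and 16.1, 20.7, 26.4 and 61.6 in male LL mice. Female PP mice had 39.9, 48.7, 81.8, 86.8 and 90.6, and female LL mice 36.6, 42.8, 45.4, 47.1 and 74.0. The male groups did not overlap and the female groups did. The log2 fold change was 2.96 ± 0.52 in males and -0.51 ± 0.32 in females, a difference of -3.47 ± 0.61. It has no call here because its mean count was under the independent-filtering limit. Without that filter its DESeq2 adjusted P was 0.000174, while edgeR gave an adjusted P of 0.143.

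Abcd2, a peroxisomal transporter of very long-chain fatty acids, had a like pattern, although its male groups overlapped by 1 mouse of each. It had 2.82 to 20.8 normalised counts in male PP against 19.2 to 82.9 in male LL mice, and 199.9 to 229 in female PP against 137 to 227 in female LL mice, with a difference of -2.13 ± 0.47 and no call. Without independent filtering its DESeq2 adjusted P was 0.0170. Both genes stood on a list of 30 genes known to be higher in female liver, of which 26 were tested. This list was split: 8 members had an unadjusted p below 0.05 below 0, among them Nipal1 (-3.22), Cyp2a4 (-3.87) and Cyp17a1 (-2.23), and 2 above 0, Cyp2b13 (4.46) and Tox (0.98). None was called. Its median of -0.31 ranged from -0.78 without female LL 3 to -0.05 without male LL 1, and turned to 0.21 with limma voom and to 0.39 without both male LL 1 and male LL 2. The 28 tested genes known to be higher in male liver had a median of -0.01, with 2 members at an unadjusted p below 0.05, both above 0 (C4a, 1.88, and Cyp2d40, 0.84), and their LL estimates were mostly below 0 in both sexes (medians -0.60 and -0.51).

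The rest of the calls below 0, apart from Ahcyl, were 3 hepatocyte genes, for albumin, afamin and urate oxidase. Alb, serum albumin (ENSMUSG00000029368, chr5:90608647-90624696), had 311509, 315825, 354548 and 410794 normalised counts in male PP and 393299, 430907, 473835 and 503677 in male LL mice. In female PP mice it was 618995, 655272, 657621, 676903 and 724059, and in female LL mice 516706, 540599, 548498, 587795 and 637308. Each sex had 1 pair of crossing values, LL the higher group in males and the lower in females. The estimates were 0.37 ± 0.11 and -0.24 ± 0.10, a difference of -0.61 ± 0.14 (DESeq2 adjusted P = 0.0180).

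Afm, afamin, a vitamin E-binding plasma protein of the albumin family whose gene lies near Alb (ENSMUSG00000029369, chr5:90666791-90701558), had 604, 635, 706 and 728 normalised counts in male PP and 652, 686, 727 and 819 in male LL mice. Female PP mice had 1254, 1372, 1394, 1605 and 1662, all above the 933, 942, 949, 1067 and 1186 of female LL mice. The female groups did not overlap and the male groups did. The difference was -0.63 ± 0.16 (DESeq2 adjusted P = 0.0245).

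Uox, urate oxidase, which breaks down uric acid in peroxisomes (ENSMUSG00000028186, chr3:146276181-146338060), had 9851 to 11186 normalised counts in male PP and 12529 to 16146 in male LL mice, with no overlap. Among females, PP mice had 9766 to 13268 and female LL mice 8402 to 11577. The LL estimates were 0.38 ± 0.12 in males and -0.25 ± 0.11 in females, and the difference was -0.62 ± 0.16 (DESeq2 adjusted P = 0.0245).

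Hepatocytes near the portal vein and near the central vein run different programmes, with urea synthesis and albumin on the portal side and glutamine synthesis and drug oxidation on the central side. Genes of the central side lay above 0. Of 18 listed, 17 were tested, 16 were above 0 and 7 had an unadjusted p below 0.05 above 0, with none below 0 and none called. The median was 0.48, from -0.28 in males and 0.15 in females. The smallest p were those of Rhbg, an ammonium transporter (2.30 ± 0.59), Gulo, which makes vitamin C (0.59 ± 0.18, DESeq2 adjusted P = 0.0789), and Slc13a3, a dicarboxylate transporter (1.401 ± 0.42). Gulo had 1718 to 1996 normalised counts in male PP against 1129 to 1429 in male LL mice with no overlap, and 1238 to 1766 in female PP against 1416 to 1956 in female LL mice with overlap. Glul, glutamine synthetase, had a difference of 0.75 and Cyp1a2 of 1.04. Rhbg shared 56.3% of its 31-base words with an overlapping gene model, so its reads could be split between the 2.

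Genes of the portal side lay below 0. All 18 were tested, 15 were below 0, 4 had an unadjusted p below 0.05 below 0 and none above 0, and Alb was called. The median was -0.35, from 0.13 in males and -0.19 in females. Etnppl, a phospholyase of phosphoethanolamine (-1.34 ± 0.43, DESeq2 adjusted P = 0.0970), and Cps1, the entry enzyme of the urea cycle (-0.59 ± 0.20, DESeq2 adjusted P = 0.146), followed Alb. Cps1 had 15390.1 to 21585 normalised counts in female PP and 10682 to 17479.6 in female LL mice, and 13745 to 15215 and 12931 to 16926 in males. The portal median was -0.07 without male LL 4 and -0.48 to -0.27 without any other single library. The central median stayed between 0.37 and 0.62 whichever single library was left out. The urea cycle and amino acid list as a whole had a median of -0.13, which was -0.02 without female PP 2 and turned to 0.02 without male LL 4, with 3 members at an unadjusted p below 0.05 in each direction.

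**Figure D3:**
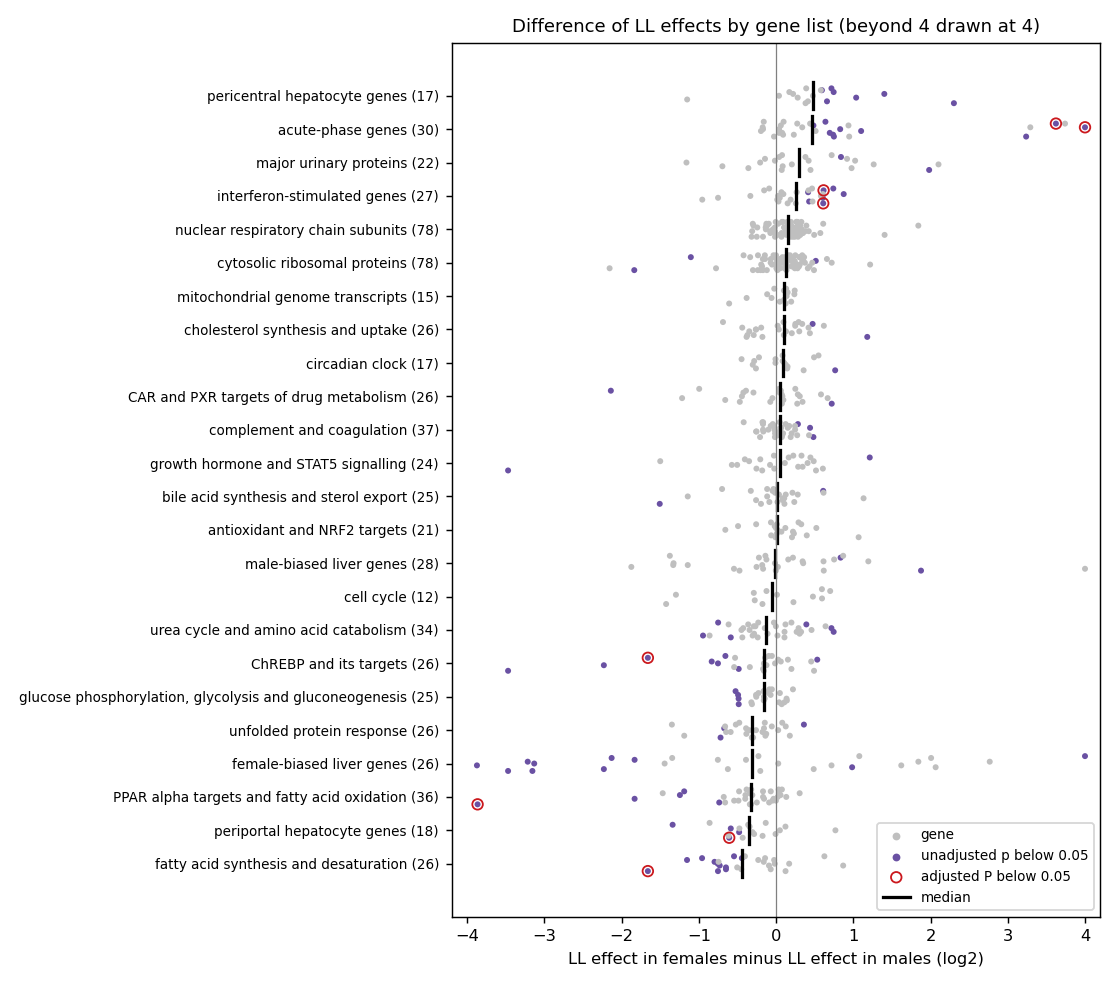
Difference of LL effects (females minus males, log2) for each tested member of 24 gene lists, ordered by median; the number tested is in parentheses. Grey points are genes, purple points those with an unadjusted p below 0.05, red rings the called genes and black bars the medians, which run from -0.45 for fatty acid synthesis to 0.48 for pericentral genes.

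Ube2l6 and H2-K1, both on the list of interferon-stimulated genes, were called above 0. H2-K1 and H2-D1 encode the heavy chains of class I major histocompatibility molecules, Psmb8 a subunit of the immunoproteasome that cuts peptides for them, and Ube2l6 the enzyme that conjugates the ubiquitin-like protein ISG15. Interferon raises all of these genes. Since H2-K1 and H2-D1 had like values, the promoter stretch they share is shown from RefSeq on build GRCm38.p6 (the counts are on GRCm39), 5′ to 3′ on the strand of the gene, with 2 motifs in capitals, GGGATTCCC, a κB site, and TTTCACTTC, the core of an interferon-response element. The stretches are chr17:34000419-34000467 on the minus strand for H2-K1 and chr17:35262914-35262962 on the plus strand for H2-D1.
H2-K1: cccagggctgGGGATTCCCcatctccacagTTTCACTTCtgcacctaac
H2-D1: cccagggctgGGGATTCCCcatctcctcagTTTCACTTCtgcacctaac
On either strand, 116 of 32851 promoter windows of 300 bases (0.353%) held the κB motif, 166 (0.505%) the interferon-response motif and 5 both. Of the 27 tested interferon-stimulated genes, 22 had a window, and H2-K1 and H2-D1 were the 2 with either motif. The windows of the rest, Ube2l6 and Psmb8 among them, held neither, which says only that these exact letters were not in those 300 bases. Other forms of a κB site or an interferon-response element were not searched for, so the genes without these letters may still hold such sites.

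Ube2l6 (ENSMUSG00000027078, chr2:84628630-84640783) had 222, 229, 235, 242 and 269 normalised counts in female PP and 306, 338, 345, 365 and 384 in female LL mice. Male PP mice had 232, 266, 270.1 and 285, and male LL mice 211, 264, 266 and 269.6. Every female LL mouse was above every other mouse of the series, while the 2 male groups overlapped. The estimates were 0.54 ± 0.10 in females and -0.07 ± 0.12 in males, a difference of 0.61 ± 0.16 (DESeq2 adjusted P = 0.0245).

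H2-K1 (ENSMUSG00000061232, chr17:34214987-34219321) had 3942, 4531, 4608, 4719 and 4788 normalised counts in female PP and 5016, 5103, 5999.7, 6523 and 6718 in female LL mice. Male PP mice had 4252, 4604, 4975 and 5151, and male LL mice 3495, 3704, 4286 and 4619. Females of the 2 genotypes did not overlap and males did, with LL the higher group in females and the lower in males. The difference was 0.61 ± 0.16 (DESeq2 adjusted P = 0.0290). H2-K1 shared 26.6% of its 31-base words with other genes, and 15.3% of all its words with H2-D1.

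Of 28 interferon-stimulated genes 27 were tested, 22 were above 0, 7 had an unadjusted p below 0.05 above 0 and none below 0, and Ube2l6 and H2-K1 were called. The median was 0.26. Psmb8 had 70.7 to 99.0 normalised counts in female PP and 82.9 to 135 in female LL mice, a difference of 0.88 ± 0.26 and no call, and H2-D1 had a difference of 0.61 and B2m, the light chain of class I molecules, of 0.41. The 7 members with an unadjusted p below 0.05 also held Stat2 and Irf7. Ifit1 (0.03), Ifit3 (0.02) and Ifit2 (-0.96) were not among them. Transcripts of the called genes above 0 were short, with a median of 886 bases against 2633 over all tested genes. The median of the interferon list was 0.11 with transcript lengths as an offset, and neither Ube2l6 (0.36) nor H2-K1 (1.10, a larger difference than in the fit without lengths) was called in that fit.

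Acute-phase genes lay above 0 through the males. Saa1 (ENSMUSG00000074115, chr7:46389916-46392547) and Saa2 (ENSMUSG00000057465, chr7:46401214-46403737) encode serum amyloid A, the plasma protein that rises most in inflammation. Saa1 had 591, 749.9, 2043 and 12575 normalised counts in male PP and 282, 311, 366 and 631 in male LL mice. The 5 female PP mice had 68.7, 72.5, 77.3, 80.6 and 101, and female LL mice 68.2, 95.0, 104, 105 and 119. The mouse at 12575 was male PP 2, which also had 7007 counts of Saa2 against 184 to 461 in the other male PP mice. The difference was 3.62 ± 0.93 for Saa1 (DESeq2 adjusted P = 0.0245) and 4.28 ± 1.12 for Saa2 (DESeq2 adjusted P = 0.0274). Without male PP 2 these values were 1.797 and 1.61 and neither gene was called. Saa1 and Saa2 shared 42.8% and 46.6% of their 31-base words with each other, so reads could be split between them.

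All 30 acute-phase genes were tested: 25 were above 0, 10 had an unadjusted p below 0.05 above 0 and none below 0, and Saa1 and Saa2 were called. The median of 0.46 came from -0.45 in males and -0.15 in females. Orm3, an orosomucoid, had 12.8 to 29.4 normalised counts in male PP and 0.892 to 6.48 in male LL mice with no overlap, 7.55 to 13.9 in female PP and 8.64 to 42.3 in female LL mice, a difference of 3.24 ± 0.75 and no call (DESeq2 adjusted P = 0.0282 without independent filtering). Lbp, the carrier of bacterial lipopolysaccharide (0.74), Hp, haptoglobin (0.83), and Fgl1 (1.10) had differences in the same direction with no call. DESeq2 gave Lcn2 (3.74) and Orm2 (3.29) no p because of a count far from its group. Fibrinogen genes were near 0 (Fga -0.17, Fgb 0.09, Fgg -0.03). The median was 0.13 without male PP 2, 0.27 without female LL 5 and 0.23 without male LL 1 and male LL 2.

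Calls above 0 outside these lists included AW112010 and Rn18s-rs5. AW112010 (ENSMUSG00000075010, chr19:11021549-11033246) had 293 to 408 normalised counts in female PP and 443 to 596 in female LL mice, with no overlap, whereas males had 296 to 379 (PP) and 275 to 328 (LL). The difference was 0.62 ± 0.17 (DESeq2 adjusted P = 0.0459). Rn18s-rs5, a copy of 18S ribosomal RNA (ENSMUSG00000119584, chr17:40157244-40159092), had 1053 to 2699 normalised counts in female PP, 1964 to 4253 in female LL, 1937 to 5649.7 in male PP and 1471 to 2317 in male LL mice, with overlap in both sexes. Its difference was 1.5003 ± 0.42 (DESeq2 adjusted P = 0.0459). Ribosomal RNA counts also follow how much of it was kept in a library, which was not tested.

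Ahcyl (ENSMUSG00000048087, chr16:45973348-45975440) had the smallest DESeq2 adjusted P and is a single-exon copy of Ahcy, the hydrolase of S-adenosylhomocysteine, on another chromosome. Its 2093 bases were 99.3% identical to the matching part of the 10-exon Ahcy transcript, with 14 differing bases, 4 of them in coding sequence. A coding stretch with 2 of these is shown, in GRCm39, because the call rests on reads that tell the copies apart: chr16:45974877-45974927 for Ahcyl and chr2:154906793-154906843 for Ahcy, both on the minus strand, with the bases that differ in capitals.
Ahcyl: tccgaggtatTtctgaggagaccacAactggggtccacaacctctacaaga
Ahcy: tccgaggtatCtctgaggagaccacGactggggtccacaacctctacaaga
Ahcyl was listed at 0 in all 5 female LL mice and in male LL 2. Female PP mice had 71.1, 164, 257, 524 and 1012 normalised counts. Male PP mice had 312, 1121, 1337 and 1501, and the other male LL mice 742, 1227 and 1725. The libraries at 0 had short fragments, 203 bases in male LL 2 and 247 to 377 in female LL mice. Those with counts had 369 bases (female PP 4) or more. Whether fragment length had a part in the zeros was not tested. The adjusted P was 0.000101 with DESeq2, 0.401 with edgeR's quasi-likelihood test and 0.909 with limma voom. Against a floor of 3 counts per library, female LL mice were at least 134-fold lower than female PP mice. Of its 31-base words 95.6% also occurred in other genes, so the authors' tool divided most of its reads by a model. Ahcy itself had 6329 to 9171 counts in female PP and 6701 to 13686 in female LL mice, and the sum of both genes 6661 to 9335 and 6701 to 13686, with overlap. How the shared reads were divided was not tested, and the call is uncertain. Tmed2b, all of whose 31-base words occurred in Tmed2 or other genes, was listed at 0 in 14 mice and is not interpreted.

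Limd2, Cyp39a1 and Rhbg stood among the smallest unadjusted p with no call. Limd2, a LIM-domain protein, had 40.4 to 54.0 normalised counts in male PP and 15.1 to 27.7 in male LL mice with no overlap, 31.9 to 38.9 in female PP and 32.6 to 66.6 in female LL mice, a difference of 1.58 ± 0.35 (DESeq2 adjusted P = 0.0184 without independent filtering). Cyp39a1, an oxysterol hydroxylase of bile acid synthesis, was a case of opposite estimates. It had 22.6 to 35.7 counts in male PP and 44.3 to 50.4 in male LL mice with no overlap, and 98.7 to 203 in female PP and 57.4 to 107 in female LL mice, with estimates of 0.67 ± 0.30 and -0.84 ± 0.23 and a difference of -1.51 ± 0.38. Rhbg was opposite in the other direction, with 14.4 to 32.0 counts in male PP, 2.40 to 16.2 in male LL, 3.36 to 15.2 in female PP and 14.8 to 33.9 in female LL mice. Unlike Limd2, Cyp39a1 and Rhbg had no call without independent filtering either (DESeq2 adjusted P = 0.0686 for each).

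Genes of glucose handling had small differences. All 25 genes of glucose phosphorylation, glycolysis and gluconeogenesis were tested, 18 were below 0, 4 had an unadjusted p below 0.05 below 0 and none was called. The median was -0.16, but -0.06 without female LL 5, -0.08 without male LL 2, and -0.09 without female PP 4 and likewise without male PP 2. Gys2, liver glycogen synthase, had a difference of -0.52 ± 0.21 and Pgk1 of -0.49 ± 0.21.

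Of 26 ChREBP genes, all tested, 19 were below 0, 7 had an unadjusted p below 0.05 below 0 and 1 above 0, and Scd1 was called. The median of -0.15 depended on single libraries, from -0.26 without male LL 4 to -0.05 without male PP 2, and was -0.25 with the length offset. Some of these genes (Cyp17a1, Ehhadh, Scd1, Enpep, Lepr and Tns3) were singled out by the study from these same libraries, so the list is not independent evidence of its direction. The targets known best for following ChREBP, Pklr (-0.16), Txnip (-0.53) and Khk (-0.05), had an unadjusted p of 0.685, 0.363 and 0.838. Mlxipl, which encodes ChREBP, was the 1 member above 0 at an unadjusted p below 0.05 (0.53).

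The remaining lists were closer to all genes. Cholesterol synthesis and uptake had a median of 0.10 with 2 of 26 members above 0 at an unadjusted p below 0.05 (Mvk 1.18 and Dhcr7 0.47), bile acid synthesis 0.02 with 1 member in each direction, drug metabolism 0.05 with 1 in each, complement and coagulation 0.05 with 3 of 37 above 0, the circadian clock 0.08 with 1 of 17 above 0, and growth hormone signalling 0.04 with 1 in each direction. Antioxidant genes (0.02), cell cycle genes (-0.06) and mitochondrial transcripts (0.10) had none at that p. Nuclear respiratory chain subunits had a median of 0.16 with 57 of 78 above 0 and none at that p, and cytosolic ribosomal proteins 0.13 with 54 of 78 above 0. None of these lists had a called member.

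No marker of the other liver cells was called. Most of them, with all 10 sinusoidal endothelial markers among them, had mean counts under the independent-filtering limit of about 270.0. DESeq2 gave these no adjusted P, so they could not be called whatever their values. Some of these marker lists lay to 1 side of 0. Fewer cells of a type and less RNA per cell cannot be told apart in whole liver. Sinusoidal endothelial markers lay below 0: all 10 were tested, 9 were below 0 and 6 had an unadjusted p below 0.05, with a median of -0.89 and Lyve1 at -2.04. Their summed counts were 288, 365, 405 and 499.6 in male PP mice and 438, 482, 515 and 556 in male LL mice. Female PP mice had sums of 540, 732, 735, 901 and 1047 and female LL mice of 432, 478, 562, 627 and 812, so the genotypes overlapped in both sexes. Stellate and fibroblast markers had a median of -0.62 with 9 of 9 tested below 0 and 4 at an unadjusted p below 0.05, and sums of 442 to 885 in male PP, 795 to 1129 in male LL, 1138 to 1376 in female PP and 855 to 1405 in female LL mice. Haemoglobin and other erythroid markers lay above 0, 5 of 5, with a median of 1.54 and 3 at an unadjusted p below 0.05, Hba-a1 (1.97), Hbb-bt (1.85) and Hbb-bs (1.54). Their sums were 1982 to 5889 in male PP, 966 to 4155 in male LL and 1282 to 2275 in female PP mice, while female LL mice fell into 1125 and 1420.3 on one side and 4879, 5378 and 6055 on the other. Kupffer cell markers had a median of 0.27, 10 of 11 above 0 and 1 at an unadjusted p below 0.05, with sums of 683 to 1664 in male PP, 637 to 1049 in male LL, 1201 to 1472 in female PP and 749 to 1174 in female LL mice. No marker of the blood-borne neutrophil or of fat cells passed the filter, and their sums were at most 13.6 and 1.60 in any mouse, with 2 of 4 fat cell markers at 0 in all. The part of any of these cells in the results above was not tested.

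**Figure D4:**
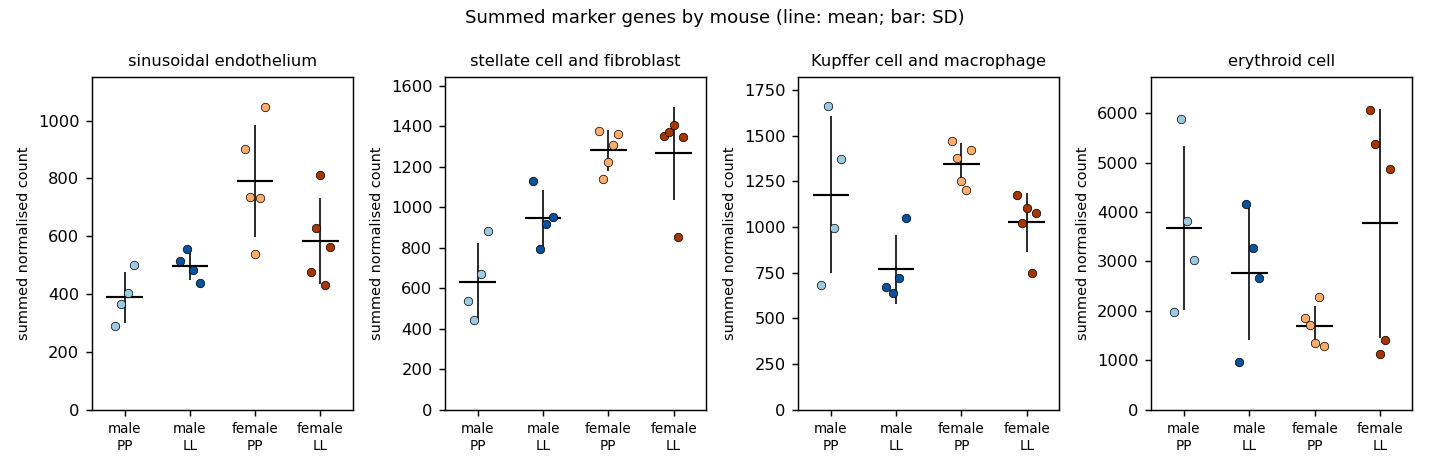
Summed normalised counts of marker genes of 4 cell types in each mouse, with group means (lines) and SD (bars; n = 4 in each male and 5 in each female group). Endothelial and stellate sums of every female PP mouse are above those of every male PP mouse, Kupffer sums are lower on average in LL mice of both sexes, and 3 of 5 female LL mice exceed every female PP mouse in erythroid markers.

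Which genes were called depended on the fit. The same 13 genes were called with a likelihood ratio test, with TMM size factors, with a stricter filter of 10 counts in 9 libraries and without the Cook's distance limit. With independent filtering off, 8 genes were called, 3 of them (Ahcyl, Alb and Cyp4a14) among the 13. With transcript lengths as an offset 12 were called, 2 of them (Ahcyl and Cyp4a14) among the 13. In that fit the values were 0.36 for Ube2l6, 1.10 for H2-K1, -0.97 for Alb and -0.72 for Uox, whose unadjusted p was 0.152. Age as a term gave 15 calls, 4 of them (Ahcyl, Alb, Cyp4a14 and Afm) among the 13, and no filter on low counts gave 12, 6 of them among the 13. Fragment length as a term gave 17 calls, 3 of them (Ahcyl, Alb and Cyp4a14) among the 13. The number of genes given an adjusted P was 1606 as reported and 10930 with independent filtering off. It was 10902 with the length offset, 10914 with age and 10938 with fragment length. The counts of calls kept therefore do not show what age or fragment length alone did. Leaving out any 1 library kept between 1 and 12 of the 13. Ahcyl was called in 18 of these 18 fits, Alb in 10, Cyp4a14 in 9, Afm and Saa1 in 8, Uox and Saa2 in 7, Ube2l6, H2-K1 and Rn18s-rs5 in 5, and AW112010 and Scd1 in 3. The number of genes given an adjusted P ran from 1172 without female PP 5 to 10905 without female LL 4. Of the 13, 8 were called in the former fit and 2 in the latter. Calls lost in these 18 fits can therefore not be laid to the mouse left out alone. Apart from Saa1 and Saa2, no estimate moved by over 1.5 times in these 18 fits: Cyp4a14 ran from -4.50 to -3.20, Scd1 from -2.10 to -1.46, Alb from -0.70 to -0.55 and H2-K1 from 0.55 to 0.69, and the highest unadjusted p of any of the 13 was 0.00743 (Scd1).

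**Figure D5:**
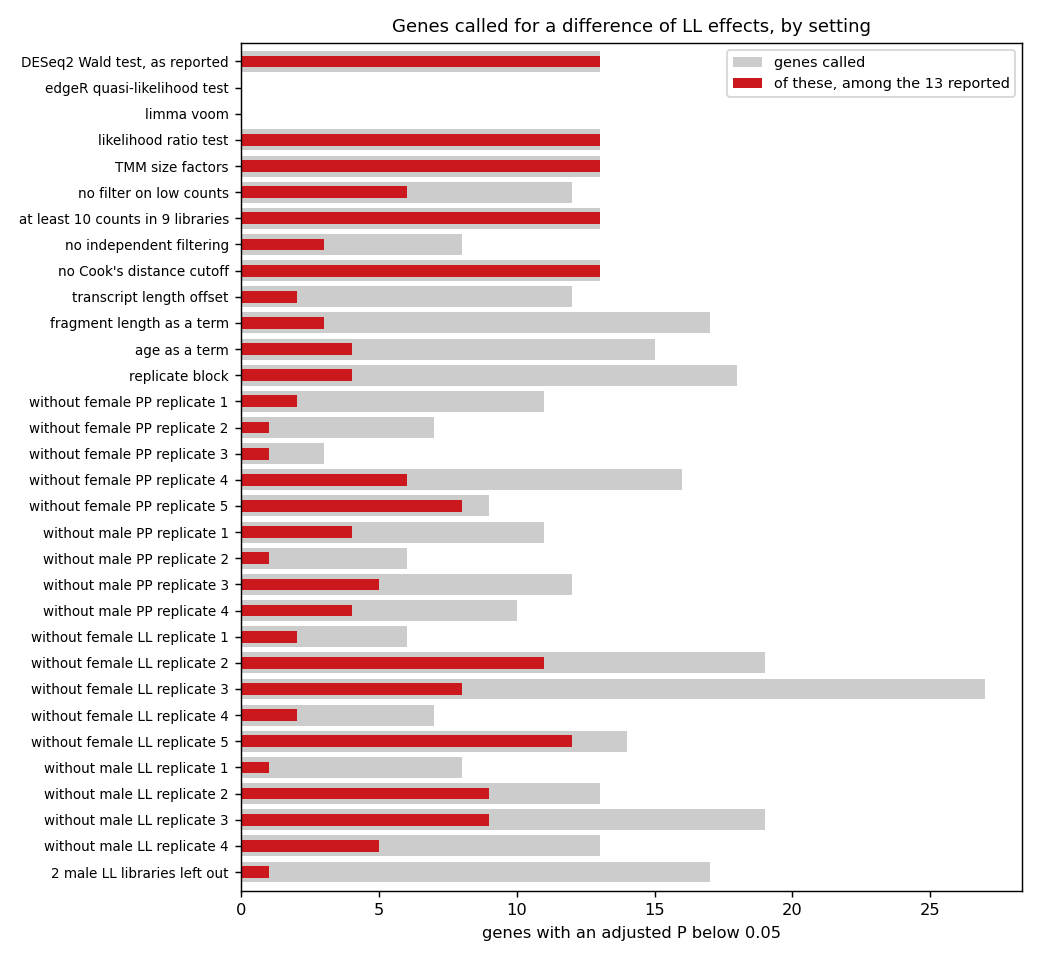
Number of genes with an adjusted P below 0.05 for the difference of LL effects under each setting (grey bars) and how many of these are among the 13 reported (red bars). edgeR and limma have no bar, and the fits that leave out 1 library run from 3 to 27 genes.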

How the data were processed

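Liver RNA of 18 mice was sequenced, 1 library per mouse. The authors assigned untrimmed reads to GENCODE M26 transcripts (GRCm39) with Salmon (version 1.4.0 per the labels) after FastQC, and deposited estimated counts, TPM and effective lengths per transcript. The deposited expected counts carry no scaling across libraries, and 90.8% of those above 0 had decimals. TPM deposited by the authors, scaled within a library, were not tested. Here 137570 of 139225 transcripts were joined to genes by GENCODE M39 (at least 99.76% of counts), summed and rounded. Genes with 10 or more counts in 4 or more libraries (10938) entered DESeq2 1.42.0 (R 4.3.3), the tool of the study, with 4 groups and the Wald test of the interaction (Benjamini-Hochberg, 0.05, no fold limit). edgeR 4.0.16 and limma 3.58.1 were alternatives. Errors are SE of log2 fold changes. The fit was also run on simulated counts drawn with the spread that DESeq2 fitted here. Such counts hold no outlying mice and no fragment length differences, so they cannot show how these act on the calls. Depth leaves a gene of a few counts with a wide counting error.

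The members and lists were chosen with earlier results of these data known. Some genes are not reported here. Named genes were Gckr, every called gene, the genes with the next smallest p up to 20 (leaving out names of the form Gm or Rik), and for each list its called members and the 3 with the smallest p. Others named illustrate a list and were chosen after their values were seen. Nothing shows that mice came from separate litters, so p-values measure the spread between these mice. Library pairs of a group differed by more than counting noise (chi-square per degree of freedom 12.3 to 107). Coordinates are of GRCm39 except the promoters (RefSeq, GRCm38.p6).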

Additional observations from a re-analysis of the deposited data

Results flagged for a closer look

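Of the 13 genes whose LL effect differed between the sexes by DESeq2, 12 are given here, with a female minus male difference (log2) of -10.90 for Ahcyl, -0.61 for Alb, -3.87 for Cyp4a14, -0.62 for Uox, -0.63 for Afm, 3.62 for Saa1, 0.61 for Ube2l6, 4.28 for Saa2, 0.61 for H2-K1, 0.62 for AW112010, -1.66 for Scd1 and 1.5003 for Rn18s-rs5. The fitted value of Ahcyl has no bound because 1 group was at 0.

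Single mice stood apart from their group by Dixon's limit in 10 of 92 groups of values looked at (10.9%). The limit is set to about 1 in 20 for normally spread values. Counts of genes picked by their p are not such values, so the rates cannot be compared. In each flagged group of Tmed2b, 1 mouse was above 0 and the others were at 0. In male PP the values were 12575 normalised counts of Saa1 and 7007 of Saa2, both in male PP 2, 151 of Tmed2b and, on the low side, 2.10 of Lepr. In male LL they were 515 of Gckr, 299 of Saa2 and, on the low side, 211 of Ube2l6. In female PP it was 98.7 of Tmed2b. In female LL they were 596 of AW112010 and 74.0 of Lepr.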

How the results depend on the processing

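The count of 13 calls was 0 with edgeR and with limma voom and 8 without independent filtering. Leaving out 1 library gave 3 to 27 calls: 7 without female PP 2, 3 without female PP 3, 6 without male PP 2, 6 without female LL 1, 27 without female LL 3, 7 without female LL 4, 8 without male LL 1, and within 1.5 times of 13 without any of the other 11. The count was 12 to 18 under the other alternatives, but not always of the same genes: these calls held 6 of the 13 without a count filter, 4 with age as a term, 3 with fragment length and 2 with the length offset. The number of genes given an adjusted P also differed between these fits, and between those that leave out 1 library. All 13 exceed 1.3-fold. Replicate numbers were not taken to pair the mice. Of 25 same-numbered pairs 3 correlated above 0.1, with a median r of 0.04 against -0.015 in the other pairs. Such correlations cannot exclude that same-numbered mice shared litters. The replicate block gave 18 calls, 4 of them among the 13. Signs of genes that were not called turned for Gys2 0.19 and Sdha 1.41 with the length offset, and Gadd45g 0.14 with limma voom. Leaving out male LL 1 and male LL 2 was added after seeing the data and gave 17 calls, 1 of them among the 13. Across genes, the difference of LL effects had a Spearman correlation with transcript length of -0.24, and of -0.17 with the length offset, a description over 10938 genes of the same libraries. The cause was not tested.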

Other observations

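Of 27 listed genes of the unfolded protein response 26 were tested, 21 were below 0, 2 had an unadjusted p below 0.05 below 0 and 1 above 0, none was called and the median was -0.31, from 0.05 in males and -0.28 in females. Hsp90b1, which folds secreted and membrane proteins, had 2644 to 6210 normalised counts in female LL mice against 4261 to 6203 in female PP mice, a difference of -0.72 ± 0.32 (DESeq2 adjusted P = 0.404), and Hspa5, the main chaperone of the compartment, of -0.67 ± 0.34 (DESeq2 adjusted P = 0.480). Atf4, a transcription factor of the stress response, had 0.36 ± 0.17.

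Major urinary protein genes, abundant in male liver, had a median difference of 0.29 over 22 genes tested, from -1.07 in males and -0.64 in females, with 2 at an unadjusted p below 0.05. Mup4 had 36.0 to 51.4 normalised counts in male PP and 9.72 to 31.1 in male LL mice with no overlap, and 0.909 to 8.39 in female PP and 3.28 to 8.89 in female LL mice, a difference of 1.98 ± 0.60 and no call. The median was 0.01 with the length offset and ranged from -0.07 without female LL 1 to 0.96 without female PP 3. Mup16 shared 96.0% of its 31-base words with other genes, so single members are uncertain.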
